A study of Mus musculus with 6 samples.

Results

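Calmodulin and the neuronal calcium sensor proteins turn a rise of calcium in a neuron into a change of enzymes, channels and membrane traffic. They bind calcium through EF-hands, helix-loop-helix units whose short loop holds the ion, and then attach to their targets. Calmodulin is present in every cell and is encoded by several genes, whereas the neuronal calcium sensors carry a lipid anchor, are found mainly in neurons and photoreceptors, and act near membranes. The 9 genes described here were selected by symbol among the 23282 gene entries of the count tables. They are the calmodulin genes Calm2 and Calm3, the calmodulin-like gene Cabp1, and the neuronal calcium sensor genes Hpca, Hpcal1, Hpcal4, Ncald, Ncs1 and Vsnl1. All 9 passed the filter on low counts, which left 15239 genes to be tested.

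The RNA came from one forebrain hemisphere, without olfactory bulb and cerebellum, of male C57BL/6J mice aged 8 to 10 weeks, killed directly after the procedure. Mice labelled water avoidance stress (WAS, n = 3) had stood for 1 h on a small platform surrounded by water, and mice labelled control (n = 3) had stood for 1 h on the same platform in a dry container. The animals were of this inbred strain in both groups, and the libraries are labelled as biological replicates. QuantSeq 3′ mRNA-Seq, which reads the end of each polyadenylated transcript, gave 9248520 to 10067053 counts in the libraries labelled WAS and 9977945 to 10502029 counts in those labelled control. A level is given in CPM, the counts of a gene per 1000000 counts of its library. Because a transcript is read at its end only, CPM was not divided by transcript length.

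Inside the tables, the count column is headed WC where the label says WAS and WS where it says control, and what these headings stand for is not given in the sources used here. Groups follow the sample labels, and an exchange of the labels would invert each direction given below. WAS replicates 1 and 3 stood apart from the other 4 libraries in genes that mark brain regions. All 8 striatum markers that were tested had a lower level in the libraries labelled WAS, none past an unadjusted p of 0.05, and the sum over the list was 183 and 414 CPM in WAS replicates 1 and 3 against 1064 to 2130 CPM in the other 4 libraries. Of 9 thalamus and habenula markers, 7 had a higher level in the libraries labelled WAS, 4 of them at an unadjusted p under 0.05 (3.85% of all genes tested were higher at this threshold), and the sum was 563 and 464 CPM in WAS replicates 1 and 3 and 119.7 to 193 CPM in the others. Of the striatum markers, Drd2 was at 0 in 5 of 6 libraries and not tested. In bulk tissue, fewer cells of a type and less RNA per cell cannot be told apart. Markers of neurons were present in every library. All 7 had a lower level in the libraries labelled WAS, as did 49.8% of all genes tested, and 3 of them passed the unadjusted p, as 3.40% of all genes did in this direction, with a sum of 5558 to 6080 CPM in the libraries labelled WAS and 6232 to 6920 CPM in those labelled control.

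The coding sequences show how the genes are related. The loop of the third EF-hand is printed, which, like that of the fourth, matches the PROSITE EF-hand pattern in every member. In GENCODE M21 (GRCm38, the assembly also called mm10), Calm2 and Calm3 encode the same protein of 149 residues. Their coding sequences of 447 bases differ at 78 positions between Calm2 and Calm3, an identity of 82.6%. The loops of the calmodulin genes and of Cabp1 are given from 5′ to 3′ on the coding strand, with capitals at bases that differ from Calm2.
Calm2: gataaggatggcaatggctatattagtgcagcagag
Calm3: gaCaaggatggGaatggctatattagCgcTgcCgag
Cabp1: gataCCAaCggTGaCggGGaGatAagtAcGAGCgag
Of 36 bases, 5 differed in Calm3 and 16 in Cabp1. The loop lies on the minus strand at chr17:87435182-87435609 in Calm2 and at chr7:16917181-16917391 in Calm3. In both calmodulin genes it is split by an intron between exons 4 and 5. The Cabp1 loop lies within exon 6, at chr5:115172868-115172903 on the minus strand. In this gene 3 EF-hands matched the pattern, against 4 in calmodulin.

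The neuronal calcium sensors had 3 matches each, and the loop of the third EF-hand is given likewise, with capitals at bases that differ from Hpca.
Hpca: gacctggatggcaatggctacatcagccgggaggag
Hpcal1: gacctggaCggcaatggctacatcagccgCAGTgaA
Ncald: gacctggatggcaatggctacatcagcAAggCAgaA
Hpcal4: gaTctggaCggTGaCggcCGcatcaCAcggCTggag
Vsnl1: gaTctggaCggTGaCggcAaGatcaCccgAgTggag
Ncs1: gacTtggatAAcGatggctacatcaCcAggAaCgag
These loops lie each within 1 exon, at chr4:129118382-129118417 (minus strand) for Hpca, chr12:17786495-17786530 (plus) for Hpcal1 and chr15:37397075-37397110 (minus) for Ncald. Those of Hpcal4, Vsnl1 and Ncs1 lie at chr4:123189187-123189222 (plus), chr12:11332019-11332054 (minus) and chr2:31284164-31284199 (plus). The closest relatives were Hpca and Hpcal1, whose proteins shared 93.8% of 193 aligned residues. Ncald shared 89.6% with Hpcal1 and 88.1% with Hpca, and Hpcal4 shared 89.5% with Vsnl1. Ncs1 shared 56.1% to 58.9% with the other 5 neuronal calcium sensors. No member of that family shared more than 29.7% with calmodulin, and Cabp1 shared 42.6% with it.

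**Figure D1:**
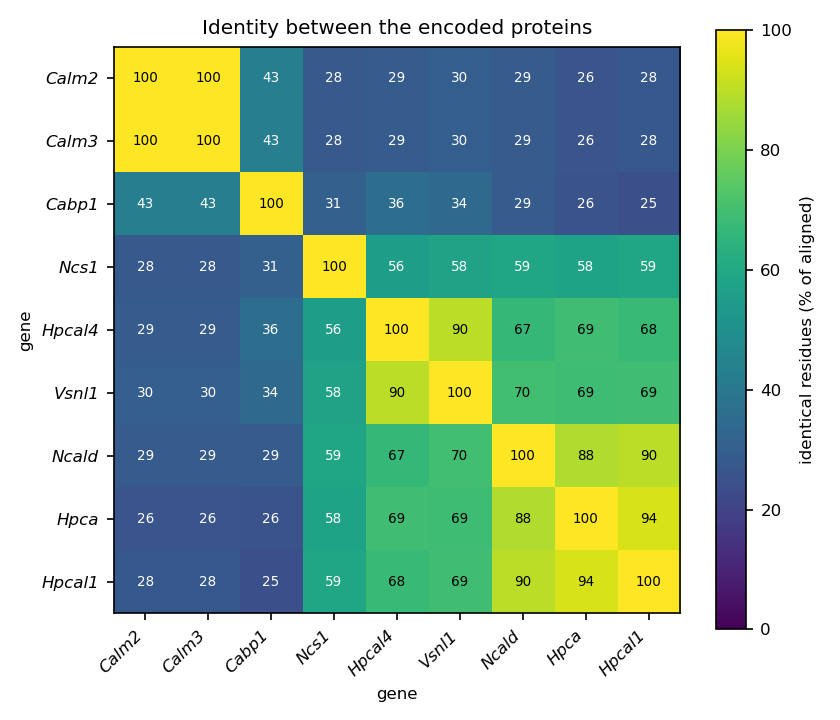
Percentage of identical residues among aligned residues for each pair of the 9 genes, from global alignment of the proteins encoded in GENCODE M21. Calm2 and Calm3 are at 100%, Hpca and Hpcal1 at 93.8%, and Hpcal4 and Vsnl1 at 89.5%.

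By edgeR's quasi-likelihood test over 15239 genes, 3 of the 9 genes had an unadjusted p under 0.05. The 9 genes were chosen with earlier results of these data known, so the shares of all tested genes given here test no excess. Cabp1 and Ncald were lower and Hpcal1 was higher in the libraries labelled WAS, while the share of all tested genes past this threshold was 7.24%. Cabp1 and Hpcal1 also met the study's criteria of an unadjusted p under 0.05 with a fold change of at least 1.5, which 2.49% of all tested genes met. Of all genes tested, 0.676% met them with a lower level, as Cabp1 did, and 1.82% with a higher level, as Hpcal1 did. Levels were separated between the groups, without overlap, for 2 of the 9 genes, Cabp1 and Ncald, both lower. Of all genes tested 12.2% did not overlap, 3.76% lower and 8.42% higher. After Benjamini-Hochberg adjustment of the edgeR p-values, 0 of the 9 genes and 0 of all genes (0.00%) remained under 0.05. Unadjusted, 1104 genes were under 0.05, and DESeq2 called 22 genes after adjustment, 1 of them Cabp1 (adjusted p = 0.0147 by DESeq2). A log2 fold change (log2FC, libraries labelled WAS relative to control) below 0 was found for 7 of the 9 genes and for 49.8% of all genes tested. The median log2FC was -0.088 for the 9 genes and 0.00088 for all genes tested.

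**Figure D2:**
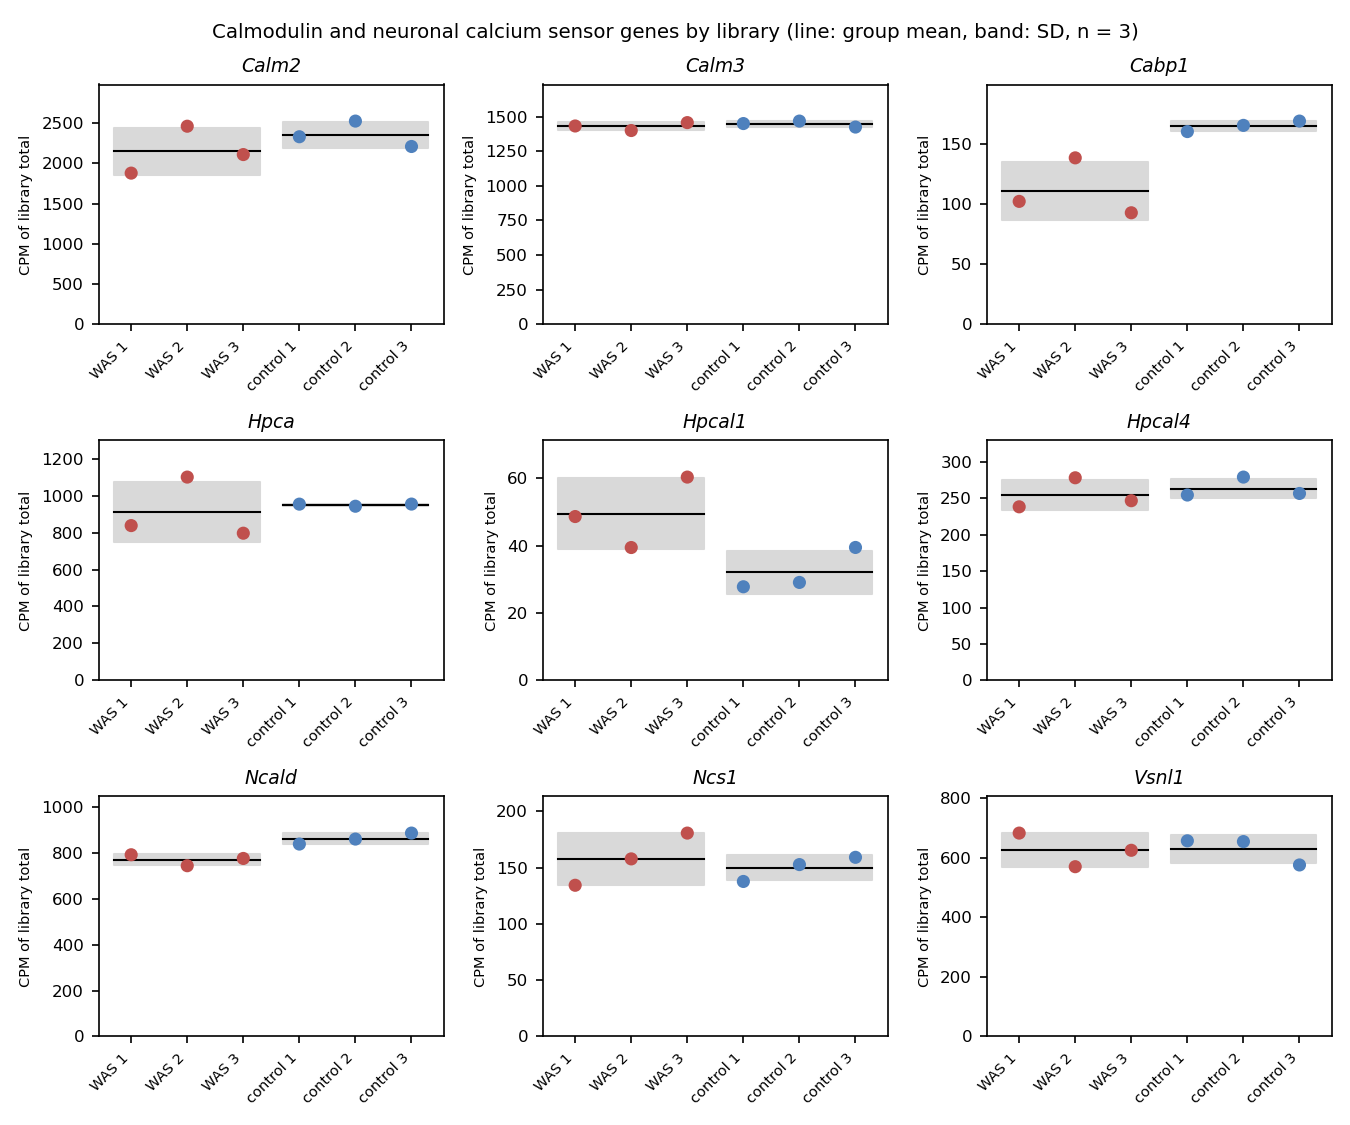
Level of each gene in CPM of the library total for the 3 libraries labelled WAS (red) and the 3 labelled control (blue), with the group mean as a line and the SD as a band. Cabp1 lay at 92.8 to 138 CPM in the libraries labelled WAS and 160.3 to 169 CPM in those labelled control, while Calm3 lay between 1399 and 1467 CPM in all 6.

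Calmodulin binds and activates CaM kinases, calcineurin and adenylyl cyclases, among many other targets. Calm2 was measured at 1878, 2461 and 2109 CPM in WAS replicates 1, 2 and 3, and at 2330, 2524 and 2209 CPM in control replicates 1, 2 and 3. WAS replicate 1 was the lowest and the groups overlapped, since WAS replicate 2 lay above control replicates 1 and 3. Group means ± SD were 2149 ± 293 CPM for WAS and 2354 ± 159 CPM for control (n = 3 each). The log2FC of -0.17 (standard error, SE, 0.10, edgeR adjusted p = 0.779) did not pass the test. With WAS replicate 2 left out it was -0.28 with an unadjusted p of 0.00480 by edgeR's test fitted across all genes.

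Calm3 was the steadiest of the 9 genes among the libraries labelled WAS. It was measured at 1432, 1399 and 1456 CPM in WAS replicates 1, 2 and 3, and at 1450, 1467 and 1424 CPM in the control replicates (1449.6 CPM in the first). The groups overlapped, and the SD was 28.7 CPM around a mean of 1429 CPM in the libraries labelled WAS and 21.7 CPM around 1447 CPM in the control libraries. The log2FC was -0.055 (SE 0.069, edgeR adjusted p = 0.930).

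The ratio of Calm2 to Calm3 counts was 1.31, 1.76 and 1.45 in the order of the WAS replicates and 1.61, 1.72 and 1.55 in that of the controls. WAS replicates 1 and 3 had the 2 lowest ratios and WAS replicate 2 the highest. The difference of the mean log2 ratio was -0.12 (p = 0.5 by a two-sided exact permutation test, which with 3 against 3 libraries cannot go below 0.1).

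Cabp1 encodes calcium-binding protein 1 and its longer form caldendrin, which act on voltage-gated calcium channels and inositol trisphosphate receptors. It was lower in the libraries labelled WAS, whose count columns are headed WC, and would be higher under stress if the labels were the wrong way round. The level was 102, 138 and 92.8 CPM in WAS replicates 1, 2 and 3, and 160.3, 165 and 169 CPM in control replicates 1, 2 and 3, from raw counts of 1029, 1280 and 926 against 1683, 1717 and 1686. All 3 libraries labelled WAS lay below all 3 labelled control, which was the case for 3.76% of all genes tested, and WAS replicate 2 lay closest to the control libraries. The means were 111 ± 24.1 CPM (SD, n = 3) and 165 ± 4.38 CPM (SD, n = 3), so that the SD was 21.7% of the mean in the libraries labelled WAS and 2.66% in those labelled control.

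The log2FC of Cabp1 was -0.61 (SE 0.13), a level 1.52 times as high in the libraries labelled control, with an unadjusted p of 0.000712 and an edgeR adjusted p = 0.477. By unadjusted p it stood at position 20 of the 15239 genes tested. In the 6 fits that each omitted 1 library, the log2FC of Cabp1 lay between -0.80 without WAS replicate 2 and -0.49 without WAS replicate 3, and the unadjusted p stayed under 0.05 in all of them. Over 14 alternative analyses the adjusted p of Cabp1 ranged from 0.000179, by edgeR without WAS replicate 2, to 0.9998, by edgeR without control replicate 2. Without both WAS replicates 1 and 3, a choice made after seeing the data, the log2FC was -0.29. These libraries had the lowest Cabp1 levels, so leaving them out shrinks the difference by construction, and a single library labelled WAS remained. The summed neuron markers were below the control range in all 3 libraries labelled WAS, and the sum of 9 cortex markers, all lower and 3 past the unadjusted p (3.40% of all genes), was 729.7 to 833 CPM against 806 to 1001 CPM. The part of these marker levels in the result was not tested.

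Of the neuronal calcium sensors, hippocalcin and its relatives hippocalcin-like 1 and neurocalcin delta attach to membranes through a myristoyl group when they bind calcium. Hpca, which encodes hippocalcin and is abundant in hippocampal pyramidal cells, cortex and striatum, was measured at 838, 1101 and 797 CPM in WAS replicates 1, 2 and 3 and at 954, 943 and 955 CPM in the control replicates. WAS replicate 2 was the highest and WAS replicates 1 and 3 the 2 lowest of the 6 libraries, whereas the control libraries differed little, with an SD of 0.700% of their mean against 18.1%. The means were 912 ± 165 CPM and 951 ± 6.66 CPM (SD, n = 3 each), and the log2FC of -0.097 (SE 0.11, edgeR adjusted p = 0.921) did not pass the test. Hpca was at -0.25 on the log2 scale without WAS replicate 2, with an unadjusted p of 0.00572 in edgeR's fit across all genes, and at 0.17 without both WAS replicates 1 and 3. The last 500 bases of the Hpca transcript share a stretch of 50 bases with transcripts of 45 other genes and overlap Tmem54 on the other strand. As the strand setting of the counting is not given in the sources used here, the Hpca counts are uncertain.

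Hpcal1, which encodes hippocalcin-like 1, was higher in the libraries labelled WAS and had the lowest level of the 9 genes. It was measured at 48.7, 39.5 and 60.4 CPM in WAS replicates 1, 2 and 3 and at 27.8, 29.1 and 39.5 CPM in the control replicates, from raw counts of 490, 365 and 603 against 292, 302 and 394. The groups touched, with WAS replicate 2 at 39.47 CPM and control replicate 3 at 39.49 CPM. Means were 49.5 ± 10.5 CPM (SD, n = 3) and 32.1 ± 6.41 CPM (SD, n = 3). The log2FC was 0.59 (SE 0.17), a fold change of 1.502 that lies just past the study's limit of 1.5, with an unadjusted p of 0.00609 and an edgeR adjusted p = 0.539. It met the study's criteria in 6 of 14 alternative analyses, and its adjusted p ranged from 0.0197, by edgeR without WAS replicate 2, to 0.9998.

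The Hpcal1 difference became smaller without WAS replicate 3 (0.42) and larger without control replicate 3 (0.77). Without both WAS replicates 1 and 3, the log2FC was 0.26. These libraries had the highest Hpcal1 levels, so leaving them out shrinks the difference by construction, and a single library labelled WAS remained. The 2 libraries with the highest Hpcal1, WAS replicates 3 and 1, were also the highest in 3 marker sums. For 8 hippocampus markers, all higher and 2 past the unadjusted p (3.85% of all genes), the sum was 125 and 162 CPM against 33.9 to 72.3 CPM in the other libraries. For midbrain and hindbrain markers, of which all 6 tested were higher and 4 past the unadjusted p, it was 132 and 75.5 CPM against 22.9 to 29.4 CPM. The other sum was that of the thalamus and habenula markers given above. The part of these marker levels in the Hpcal1 result was not tested. The end of the Hpcal1 transcript shares a stretch of 50 bases with 3 non-coding genes, so that its counts are uncertain too.

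Ncald, which encodes neurocalcin delta, was slightly lower in the libraries labelled WAS. Levels were 792, 745 and 776 CPM in WAS replicates 1, 2 and 3 and 839, 861 and 887 CPM in the control replicates. The groups did not overlap, and the difference was small beside that of Cabp1. The means were 771 ± 24.3 CPM (SD, n = 3) and 862 ± 24.0 CPM (SD, n = 3), and the log2FC was -0.20 (SE 0.074, unadjusted p = 0.0213 and edgeR adjusted p = 0.625). Unlike Hpca and Cabp1, Ncald was lowest in WAS replicate 2, and without both WAS replicates 1 and 3 the log2FC was -0.25. The unadjusted p of Ncald was above 0.05 without control replicate 2 (0.0515 by edgeR), without control replicate 3 (0.0656) and on quantile-normalized values with limma (0.137).

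Vsnl1 and Hpcal4 encode the visinin-like proteins of the family, which are expressed mainly in neurons. Vsnl1 was measured at 683, 569.8 and 625 CPM in WAS replicates 1, 2 and 3 and at 657, 654 and 576 CPM in the control replicates. The highest and the lowest library were both labelled WAS, and the log2FC of -0.043 (SE 0.090, edgeR adjusted p = 0.961) did not pass the test. Hpcal4 was measured at 239, 278 and 247 CPM in the libraries labelled WAS and at 255, 279 and 257 CPM in those labelled control. Here WAS replicate 2 and control replicate 2 were nearly equal, and the log2FC was -0.088 (SE 0.089, edgeR adjusted p = 0.902). Although these proteins shared 89.5% of their residues, Vsnl1 was highest and Hpcal4 lowest in WAS replicate 1.

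Ncs1 encodes neuronal calcium sensor 1, the family member closest to the form found in yeast, which binds a phosphatidylinositol 4-kinase and the dopamine D2 receptor. It was measured at 134, 158 and 181 CPM in WAS replicates 1, 2 and 3 and at 138, 153 and 159 CPM in the control replicates. The libraries labelled WAS held both the lowest and the highest value, and the log2FC of 0.035 (SE 0.11, edgeR adjusted p = 0.972) did not pass the test. Its sign turned around without WAS replicate 3 (-0.076) or control replicate 1 (-0.031).

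**Figure D3:**
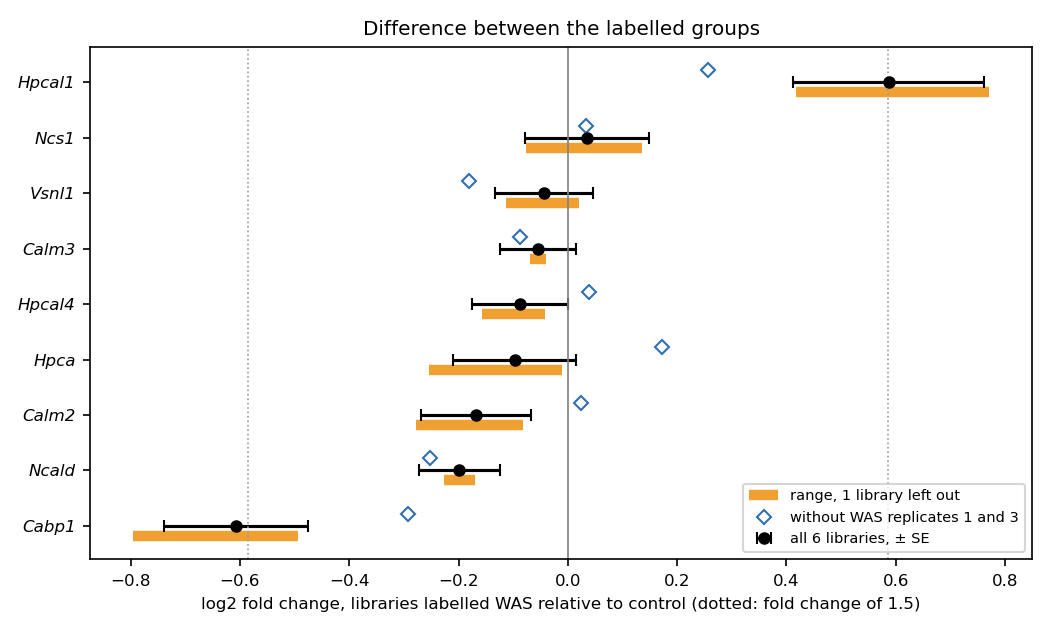
Log2 fold change of each gene in the libraries labelled WAS relative to those labelled control with its SE (black), the range over the 6 fits that each left out 1 library (orange), and the value without WAS replicates 1 and 3 (open diamonds). Cabp1 stays below 0 and Hpcal1 above 0 in each, with both closer to 0 without these libraries (-0.29 and 0.26), while Hpca moves to 0.17.

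Across libraries, the 9 genes did not share a single profile. WAS replicate 1 was below the gene's own 6-library mean of log2 CPM for 7 of the 9 genes, WAS replicate 3 for 6 and WAS replicate 2 for 3, and the control libraries for 3, 2 and 4. Calm2, Cabp1, Hpca and Hpcal4 were lowest or second lowest in both WAS replicates 1 and 3, which were also lowest in striatum markers. Hpcal1 was highest in these libraries. Calm3, Ncald and Vsnl1 were lowest in WAS replicate 2, and Ncs1 lay at opposite ends in WAS replicates 1 and 3. All 9 genes had a larger coefficient of variation in the libraries labelled WAS than in those labelled control, as did 57.8% of all genes tested. The median coefficient of variation of the 9 genes was 13.7% in the libraries labelled WAS and 5.18% in those labelled control, beside 13.9% and 11.5% for all genes tested. The summed level of the 9 genes was 6147 to 6889 CPM in the libraries labelled WAS and 6675 to 7076 CPM in those labelled control.

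**Figure D4:**
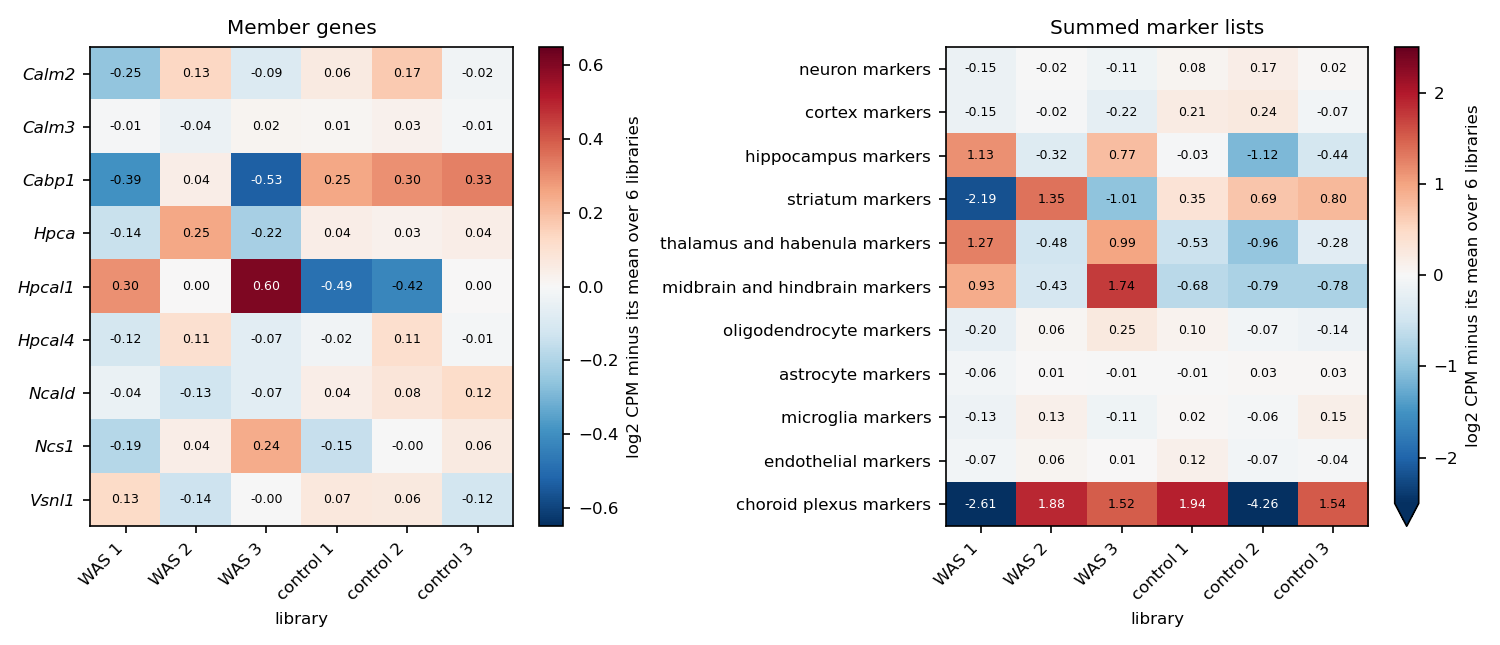
Log2 CPM of the 9 genes (left) and log2 of the summed CPM of 11 marker lists (right) in each library, minus the mean of that row over the 6 libraries; the 2 panels have different colour scales. WAS replicates 1 and 3 share low striatum values (-2.19 and -1.01), low Cabp1 (-0.39 and -0.53) and high Hpcal1 (0.30 and 0.60), and choroid plexus markers are low in WAS replicate 1 and control replicate 2.

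Choroid plexus markers did not follow the groups, with sums of 53.2 CPM in WAS replicate 1 and 17.0 CPM in control replicate 2 and of 931 to 1247 CPM in the other 4 libraries. For the cells around the neurons, the sums of 7 oligodendrocyte, 6 astrocyte, 7 microglia and 6 endothelial markers overlapped between the groups. Oligodendrocyte markers, for example, were at 5541 to 7584 CPM against 5804 to 6819 CPM. Of these genes, 1 astrocyte marker, Aqp4, had an unadjusted p under 0.05, with a log2FC of 0.36. Of all genes tested, 3.85% were higher at this threshold.

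Other genes of calcium sensing were compared in the same fit, from lists drawn up by function. Of 20 other EF-hand sensors, 13 were tested, and their median log2FC was 0.022, with 1 gene higher and 2 lower at an unadjusted p under 0.05. For comparison, 3.85% of all genes tested were higher and 3.40% were lower at this threshold. The most abundant of these sensors was Kcnip2, which encodes a subunit of A-type potassium channels, at -0.12 (SE 0.15), followed by Caln1, which encodes calneuron 1, at 0.0090 (SE 0.098). The genes past the threshold were Kcnip3, which encodes the sensor also called DREAM, at -0.24 (SE 0.11), Necab3 at -0.44 (0.18) and Cib2 at 0.71 (0.31). Cib2 alone of these met the study's criteria, at 5.41 to 6.56 CPM against 2.60 to 5.31 CPM. Of the remaining sensors, Cabp2 had no count in any library.

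Of 7 proteins that hold calmodulin in the absence of calcium or are otherwise bound by it, Nrgn passed the unadjusted threshold. At this threshold 3.40% of all genes tested were lower, as Nrgn was. Nrgn encodes neurogranin, a postsynaptic protein of forebrain neurons. Its level was 4218, 5476 and 3752 CPM in WAS replicates 1, 2 and 3 and 5772, 6556 and 5270.2 CPM in the control replicates, a log2FC of -0.42 (SE 0.13, edgeR adjusted p = 0.539). Its adjusted p ranged from 0.00184, by edgeR without WAS replicate 2, to 0.9998 over the 14 alternatives. WAS replicate 2 lay above control replicate 3, so the groups overlapped, and WAS replicates 1 and 3 were the 2 lowest libraries, as for Cabp1. Basp1 was next in level with -0.12 (SE 0.073), and the median of the list was -0.12, which became 0.038 without WAS replicate 1 and 0.0045 without WAS replicate 3.

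For calcineurin, the phosphatase that calmodulin activates, the 8 listed genes other than Akap5 had a median of -0.10. Ppp3ca, its main catalytic subunit in brain, was at 3913, 5810 and 4109 CPM in the libraries labelled WAS and 5255, 5528 and 4878 CPM in those labelled control (5809.7 CPM in WAS replicate 2). The groups overlapped and the log2FC of -0.22 (SE 0.13) did not pass the test. It was -0.42 without WAS replicate 2, with an unadjusted p of 5.3e-05 and an edgeR adjusted p = 0.00538 (0.00538 to 0.9998 over the 14 alternatives), 0.11 without both WAS replicates 1 and 3, and -0.028 on quantile-normalized values with limma. Of the calcineurin inhibitors, Rcan1 was lower (-0.28, SE 0.11) and Rcan3 higher (0.33, SE 0.13) at an unadjusted p under 0.05. Of all genes tested, 3.40% were lower and 3.85% higher at this threshold. The counts of Akap5, listed as an anchor of calcineurin, differed from those of Lrrc17 by at most 0.986% in each library and cannot be read as a level of Akap5. With these counts included, the median of the list was -0.086, and between -0.19 and 0.021 when single libraries were omitted, above 0 without control replicate 2 (0.021) or WAS replicate 1 (0.020).

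Among 6 adenylyl cyclases and phosphodiesterases regulated by calmodulin, 2 were lower at an unadjusted p under 0.05 (3.40% of all genes), Adcy1 at -0.27 (SE 0.11) and Pde1a at -0.22 (SE 0.081), and the median was -0.23, which shrank to -0.094 without WAS replicate 1. Pde1a was at 232 to 239 CPM in the libraries labelled WAS and at 254 to 286 CPM in those labelled control, without overlap, as for 3.76% of all genes. Of 13 channels and partners of the neuronal sensors, 7 had a log2FC below 0 and 6 above, 2 and 1 of them at an unadjusted p under 0.05 (3.40% and 3.85% of all genes), and the median of -0.0027 ranged from -0.11 to 0.11 when single libraries were omitted. Map3k10, whose kinase product binds hippocalcin, was at 31.3 to 34.9 CPM against 43.6 to 44.3 CPM, a log2FC of -0.43 (SE 0.099, unadjusted p = 0.00106, edgeR adjusted p = 0.477). Itpr1, the inositol trisphosphate receptor that calcium-binding protein 1 acts on, was at 203, 366 and 214 CPM in the libraries labelled WAS and 370.0, 382 and 344 CPM in those labelled control. WAS replicates 1 and 3 were again the 2 lowest libraries, and the log2FC was -0.52 (SE 0.18), which became -0.84 without WAS replicate 2 and -0.036 without both WAS replicates 1 and 3. Chrna4 was at 0.52 (SE 0.21), which fell to 0.22 without WAS replicate 1 (unadjusted p = 0.199 by edgeR). Cacna1a, the P/Q-type calcium channel and together with Itpr1 the most abundant of this list, was at -0.13 (SE 0.11).

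Of 5 calcium buffers, 4 were tested and Calb2, which encodes calretinin, was higher at 59.7, 18.7 and 49.9 CPM in WAS replicates 1, 2 and 3 against 14.2, 7.61 and 24.3 CPM. WAS replicate 2 lay below control replicate 3, and the log2FC was 1.44 (SE 0.42, edgeR adjusted p = 0.539). The adjusted p of Calb2 ranged from 0.00255, by edgeR without WAS replicate 2, to 0.9998. Calb2 was also listed among the thalamus and habenula markers. The more abundant buffers Calr and Calb1 were at -0.051 and -0.11 (SEs 0.11 and 0.13). When single libraries were omitted, Nrgn, Map3k10 and Calb2 kept an unadjusted p under 0.05 in all 6 fits, and the other named genes of these lists past that threshold lost it in 2 to 5 of them, at least 1 gene for each library omitted. Nrgn and Calb2 missed the threshold on quantile-normalized values with limma. Omitting WAS replicate 3 brought Necab3 to -0.28, Kcnip3 to -0.16 and Rcan3 to 0.21, and omitting control replicate 3 brought Cib2 to 1.12. Over the omissions of single libraries, the median of the other EF-hand sensors ranged from -0.055 to 0.080 and that of the buffers from 0.038 to 0.17.

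For each of the 3 genes past the unadjusted threshold, the most similar profiles over the 6 libraries were sought among 7201 other tested genes with a mean of at least 20 CPM, by the root mean square difference of log2 CPM after centring. Closest to Cabp1 were Camk2n1, an inhibitor of CaM kinase II (0.071), then Fam212b (0.080), Ttc9b (0.088), Stx1a, a syntaxin of transmitter release (0.089), and E130012A19Rik (0.092). Camk2n1 had a log2FC of -0.51 and Stx1a of -0.54. On quantile-normalized values with limma, Camk2n1 was at -0.090 and did not pass the unadjusted threshold. Closest to Hpcal1 were Lypd1 (0.049), Gpr39 (0.067), Amotl1 (0.068), B630019K06Rik (0.070) and Camk2d (0.077), all of them higher in the libraries labelled WAS by 0.48 to 0.65 on the log2 scale. Without WAS replicate 3, Lypd1 was at 0.36, Gpr39 at 0.42 and B630019K06Rik at 0.32, and Lypd1 and B630019K06Rik then missed the unadjusted threshold. Closest to Ncald were Zkscan1 (0.018), Dkc1 (0.023), Snrnp25 (0.031), Scg3 (0.031) and Kmt2a (0.033), with log2FCs of -0.21 to -0.15. These are descriptions over the same 6 libraries, which the genes share with one another and with the markers of brain regions. Because these genes were chosen by profile, a log2FC near that of Cabp1, Hpcal1 or Ncald follows from the choice.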

How the data were processed

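Each of the 6 libraries, labelled as biological replicates, was grouped by the treatment in its label. The values are deposited counts of reads per gene symbol, which the authors obtained from single-end QuantSeq reads of 75 bp with Bowtie2, keeping reads that align once or more than once, and Bedtools. The submitters' processing notes name mm10 and bedtools. The annotation is not given in the sources used here. The study normalized by quantiles after this step.

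Counts were scaled by TMM (factors 0.976 to 1.01) and tested with edgeR 4.0.16 in R 4.3.3 (quasi-likelihood test, two-sided, no block) on 15239 genes with a mean log2(quantile-normalized count + 1) of at least 2. Of the 23282 entries, 44 repeat a symbol and were kept apart. A standard error (SE) is the size of the fitted log2 fold change over the square root of its F statistic. The Benjamini-Hochberg adjustment covered all genes tested. The common biological coefficient of variation was 14.0%. The fits were tested on simulated data. CPM uses the library total, of which the ribosomal RNA gene Rn45s took 4.96% to 7.32%. Alternatives used DESeq2 1.42.0, limma 3.58.1, other scalings and filters, a block and left-out libraries.

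The 9 genes and the lists were chosen with earlier results of these data known. Named beside them were the 2 most abundant genes of each list of calcium sensing, up to 4 genes of each with an unadjusted p under 0.05, and for each of the 9 genes past that threshold the 5 genes of most similar profile. Marker lists are given as sums. Sequences come from GENCODE M21, where the longest APPRIS principal transcript of each gene, with a CCDS entry preferred, was used. Shared ends were sought as stretches of 50 bases in its last 500 bases. A gene of the lists is not reported here.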

Additional observations from a re-analysis of the deposited data

How the results depend on the processing

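Over 14 alternatives, Cabp1 and Hpcal1 kept their direction, with an unadjusted p under 0.05 in 14 and 13 of them, and so did Ncald, with 11. The number of the 9 genes meeting the study's criteria was 1 in place of 2 with library totals, library totals without Rn45s, DESeq2, limma, no filter on low counts and the block, where the fold change of Hpcal1 or Cabp1 fell to the other side of 1.5. Ncald was at -0.15 with limma (p 0.137). With a mean of at least 10 CPM, 85 of all genes met these criteria. The number of all genes with an adjusted p under 0.05 was 22 with DESeq2 and 49 with the block. Cabp1 was among them in both, with an adjusted p of 0.0147 by DESeq2 and 0.0495 by edgeR with the block, against 0.477 by edgeR without it. Over the 14 alternatives its adjusted p ranged from 0.000179 to 0.9998.

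Leaving out 1 library at a time gave ranges of log2 fold change of -0.28 to -0.082 for Calm2, -0.80 to -0.49 for Cabp1, -0.25 to -0.0100 for Hpca, 0.42 to 0.77 for Hpcal1, -0.23 to -0.17 for Ncald, -0.076 to 0.14 for Ncs1 and -0.11 to 0.020 for Vsnl1. Ncs1 turned to -0.076 and -0.031, and Vsnl1 to 0.020. In these fits 2 to 5 of the 9 genes had an unadjusted p under 0.05 and 0 to 2 met the study's criteria, while 623 to 2092 of all genes had an unadjusted p under 0.05, 261 to 831 met the criteria and 0 to 484 had an adjusted p under 0.05, the highest numbers without WAS replicate 2. The causes were not tested. The ranges were -0.045 to 0.080 for Caln1, which turned without WAS replicate 1 or 2 or control replicate 1, -0.37 to 0.019 for Kcnip2, -0.16 to 0.045 for Calr and -0.25 to 0.021 for Calb1. Kcnip2 (0.019) and Calb1 (0.021) turned without WAS replicate 1, Calr (0.021) without WAS replicate 2, and Calr (0.045) without control replicate 3.

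Without both WAS replicates 1 and 3, chosen after seeing the data, a single library labelled WAS remained, so only effect sizes are given. Calm2 (0.024), Hpca (0.17), Hpcal4 (0.039), Kcnip2 (0.27), Ppp3ca (0.11), Chrna4 (-0.050) and Calb1 (0.13) turned, and Hpcal1 was at 0.26. Of 475 results for the other named genes, without Akap5, over all alternatives, 371 kept direction and side of the threshold, 85 lost and 8 gained it, and 11 turned.

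The groups share replicate numbers, and deviations of same-numbered libraries correlated at 0.0878, 0.115 and 0.102, against -0.0985 to -0.0070 for other pairs. Every library labelled WAS correlated best with its own number, a hint from the data and not from the design. With the replicate number as a block, Calm2 was at -0.18 (edgeR p 0.0374) and passed the unadjusted threshold. None of the other 8 genes changed its side of that threshold under the block. The block moved no other adjusted p of the 9 genes across 0.05. With it, the edgeR adjusted p was 0.0327 for Nrgn and 0.0156 for Calb2. The lowest counts among the 9 genes were those of Hpcal1, 292 to 603.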
